A study of Mus musculus with 6 samples.

Results

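The purine synthesis enzymes are 10 genes whose products build the purine ring and turn its first product, inosine monophosphate (IMP), into adenosine and guanosine monophosphate. Members were taken as every probe set whose platform annotation gives exactly 1 of these 10 symbols, which found 11 of 20380 probe sets with a single gene. They measured 6 of the 10 genes, among 12393 genes in all, with 2 probe sets for Ppat, 3 for Gart, 3 for Paics and 1 each for Adsl, Adss and Impdh1. Pfas, Atic, Impdh2 and Gmps had no probe set under this rule and were not analysed here. RNA came from wild-type mouse embryonic fibroblasts (MEFs), cells of embryonic connective tissue grown in dishes, either after 6 h of starvation (3 arrays) or in normal medium (3 control arrays). The labels name no mouse strain, embryo age or passage, and do not say what the starvation medium lacked. They number the arrays of a group as biological replicates and do not say whether these were separate cultures, so p-values measure the spread between arrays, which may be technical.

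Cells make purines from small precursors or recover them by salvage. In the synthesis route, an amidotransferase commits phosphoribosyl pyrophosphate (PRPP) to the pathway, and the ring is then assembled with glycine, glutamine, aspartate and formyl groups carried by folate. From IMP, one branch gives adenylate and the other guanylate. Growing cells rely on the route for nucleic acids, ATP and GTP, and growth signalling through MYC and mTORC1 is known to raise it.

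Starved fibroblasts had lower transcript levels of the enzyme that opens the pathway and of the trifunctional enzyme that follows it. The other measured members moved little in the deposited scaling. Ppat fell 2.80-fold by its brighter probe set, which can bind several transcripts, and 1.61-fold by its other one. Gart fell 1.62-fold. In the deposited scaling Paics rose 1.28-fold and Adss 1.18-fold, but both lay below 0 once arrays were set to equal poly-A spike-in signal, called poly-A centring here (−0.02 and −0.14 on the log2 scale). Adsl and Impdh1 did not pass the test in the deposited scaling. Under poly-A centring they were called lower (−0.51 and −0.50), as were 72.1% of all genes. Tested by limma over the whole set of genes (Benjamini-Hochberg adjusted p below 0.05), 2 of the 6 members were lower and 2 higher, where 22% of all genes were called lower and 22.1% higher. The share of members called was thus 4 of 6 against a background of 44.1%, and this share says little about a set of 6 genes. Their median difference was −0.13, against −0.05 for all genes. Starved and control arrays were fully apart for 5 of the 6 members, and for 54% of all genes.

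Levels are log2 array signals, and a difference is the starved mean less the control mean in log2 units. The arrays were brought to nearly the same distribution by the authors, so a change in total messenger RNA is not visible in them, and less RNA per cell cannot be told apart from fewer expressing cells. Spike-in RNAs, which are normally added in fixed amounts, were brighter on all 3 starved arrays, by 0.37 for the poly-A set and 0.19 for the hybridization set. Centring on them moved the median of all genes from −0.05 to −0.42 and −0.24, so directions are relative to the bulk of genes. In control arrays 11 of 12 measured fibroblast markers lay above the median gene level, and Thy1 did not (4.99). Of these 12 markers 7 rose and 2 fell, and their summed signal was 69247 to 71540 on control and 86530 to 87288 on starved arrays. Levels of 10 markers of macrophages and blood lay between 3.16 and 7.75 in control arrays and between 3.19 and 7.29 in starved arrays. The summed signal of that list was 460 to 484 on control and 389 to 425 on starved arrays. In it 1 gene rose (Cd68) and 2 fell (Cd14 and Coro1a). Ptprc, a marker of white blood cells, was near the dim end in both groups (3.16 and 3.19). Group means of epithelial and endothelial markers reached at most 5.19, and among them Cdh1 rose from 3.44 to 4.36 and 2 endothelial markers fell. The gap between 3′ and 5′ beta-actin control probes, a sign of RNA integrity, was 0.01 to 0.03 on control and 0.06 to 0.14 on starved arrays. The same gap for Gapdh overlapped between the groups, at −0.02 to 0.03 and −0.09 to 0.02. The part of these markers and gaps in the results was not tested.

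**Figure D1:**
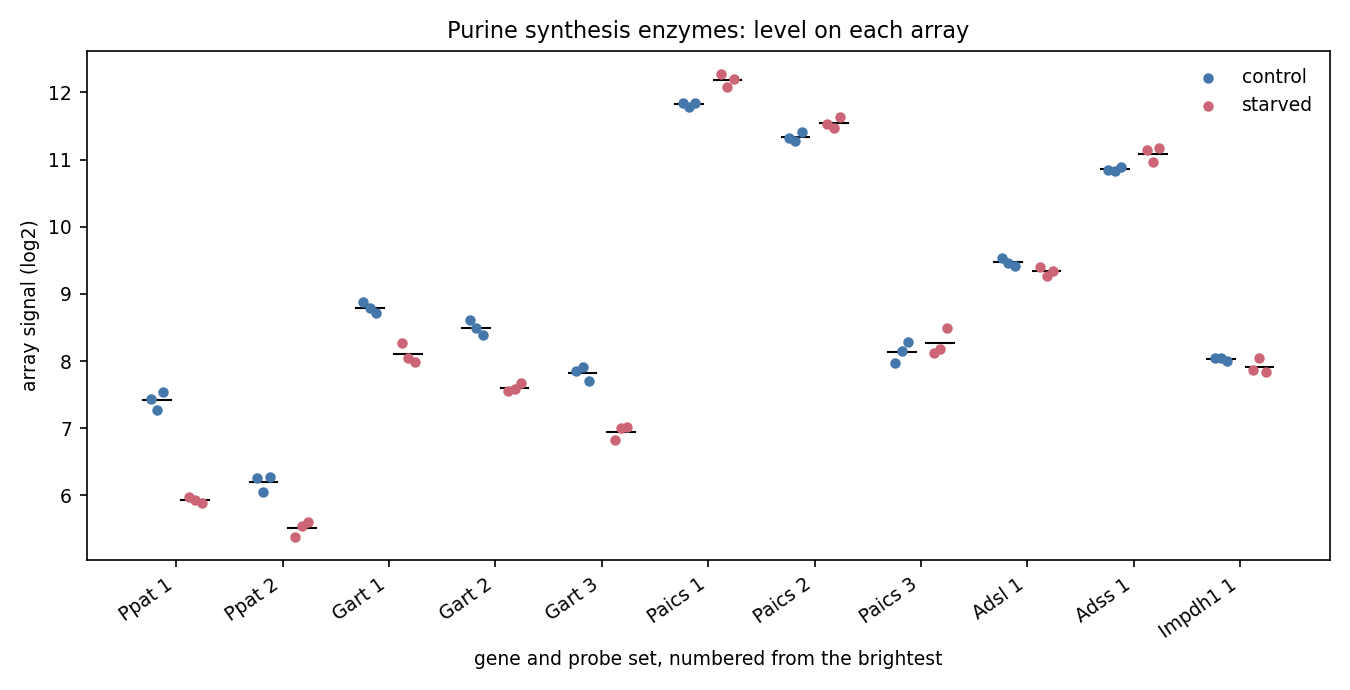
Log2 array signal of the 11 member probe sets (x axis, numbered within a gene from the brightest) on each of 3 control (blue) and 3 starved (red) arrays, with black lines at group means. Both Ppat and all 3 Gart probe sets lie lower on every starved array, whereas the means of Paics and Adss lie slightly higher in the deposited scaling, which reverses under poly-A centring for both.

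Ppat encodes the PRPP amidotransferase, the enzyme of the committed first step. Its brighter probe set read 7.44, 7.27 and 7.54 on the control arrays and 5.97, 5.93 and 5.89 on the starved arrays. Every starved array lay more than 1 log2 unit below every control array. The difference was −1.49 (SE 0.08, 95% interval −1.67 to −1.30, adjusted p = 7.19e-07 by limma), and only 59 of 12393 genes had a lower value. The dimmer probe set read 6.25, 6.05 and 6.27 in control and 5.38, 5.55 and 5.60 in starved cells. It fell by 0.68 (SE 0.09, adjusted p = 0.000331 by limma over all probe sets). The groups were apart in both, but the size of the fall depended on the probe set. The brighter one is of a type that can bind several transcripts, and without such probe sets Ppat stood at −0.68 (adjusted p = 0.000178, where the alternatives ranged from 1.41e-11 to 0.000178).

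Gart encodes a protein with 3 activities, which catalyse separate steps of ring assembly, among them the addition of glycine and of the first formyl group. The gene is known to give a shorter transcript as well, and the annotation does not say which probe set reads which. The brightest probe set read 8.88, 8.79 and 8.72 on control arrays and 8.27, 8.05 and 7.98 on starved arrays. It fell by 0.70 (SE 0.09, adjusted p = 0.000148 by limma), and 3.92% of all genes had a lower difference. The second read 8.61, 8.50 and 8.38 in control and 7.55, 7.59 and 7.67 in starved cells, a fall of 0.90 (SE 0.08). The dimmest read 7.85, 7.92 and 7.70 against 6.82, 7.00 and 7.01, a fall of 0.88 (SE 0.09). All 3 probe sets passed over all probe sets tested (adjusted p = 0.000306, 3.54e-05 and 6.14e-05 by limma), with no overlap between the groups.

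Paics encodes a bifunctional enzyme of the middle of the pathway, a carboxylase joined to a synthetase that adds aspartate. Its brightest probe set read 11.85, 11.78 and 11.85 on control arrays and 12.28, 12.08 and 12.19 on starved arrays, with no overlap. The difference was 0.36 (SE 0.07, 95% interval 0.19 to 0.52, adjusted p = 0.00311 by limma), but 0.17 under hybridization and −0.02 under poly-A centring. The second probe set, at 11.32, 11.28 and 11.41 in control and 11.53, 11.47 and 11.63 in starved cells, did not pass (0.21, adjusted p = 0.0556 by limma). The third overlapped between the groups and did not pass either (0.13, adjusted p = 0.429 by limma). Taken singly, 1 of the 3 probe sets passed, and the mean of the 3 passed with a difference of 0.23 (adjusted p = 0.0317, where the alternatives ranged from 3.06e-05 to 0.873). The call for Paics was kept under array median centring (0.31) and lost under each spike-in centring.

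Ppat and Paics are neighbours that run in opposite directions. In the RefSeq annotation of GRCm38.p6 their start sites are 276 bases apart on chromosome 5, and their first 277 bases overlap. Paics has a further opposite-strand neighbour, LOC115486295, whose start site lies 352 bases upstream of its own. The level of LOC115486295 was not examined here. Paics minus Ppat on the same array, a quantity in which array scaling cancels, was 4.41, 4.52 and 4.31 on control arrays and 6.31, 6.15 and 6.31 on starved arrays. Each value compares different probes, so only its change is of use. It was larger by 1.84 in starved cells (4.41 ± 0.10 and 6.26 ± 0.09, SD, n = 3), with an exact two-sided permutation p = 0.1, the smallest that 3 arrays against 3 can give. Over the 6 pairs of a Paics with a Ppat probe set the change lay between 0.81 and 1.84, and in all 6 every starved array was above every control array. In each pairing of probe sets the transcripts of this head-to-head pair thus changed unequally on these arrays. The pairings share arrays and probe sets, so they are not independent of each other. How often other gene pairs differ as much was not examined.

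**Figure D2:**
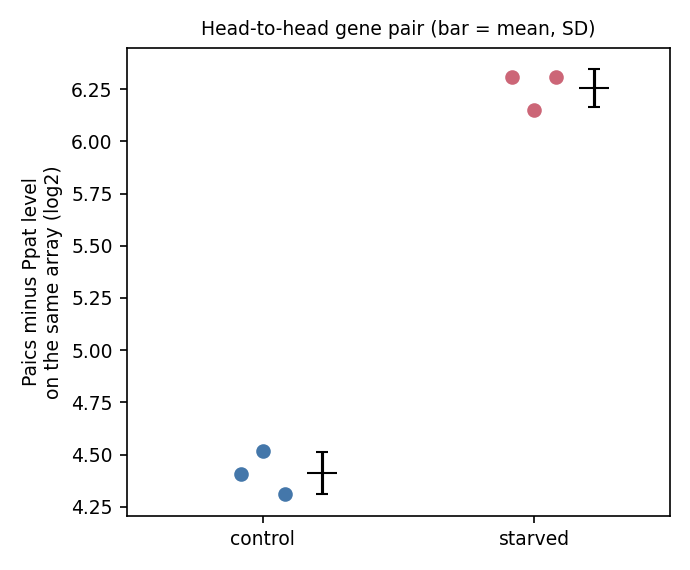
Paics minus Ppat level (log2) on the same array for the brightest probe set of each gene, in 3 control (blue) and 3 starved (red) arrays, with mean and SD in black. Control arrays sit between 4.31 and 4.52 and starved arrays between 6.15 and 6.31.

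The RefSeq promoter windows of the 3 genes are shown because the 2 neighbours share a locus and Ppat and Gart fell together. Each runs 5′ to 3′ on the gene's strand, from 250 bases before the start site to 50 bases after it, on GRCm38.p6. Capitals mark matches, on either strand, to CACGTG (the E-box bound by MYC and related factors), the NRF1 motif or CCAAT (the CCAAT box). The windows are chr5:76951529-76951828 (minus strand) for Ppat, chr5:76951052-76951351 (plus strand) for Paics and chr16:91646923-91647222 (minus strand) for Gart.
Ppat: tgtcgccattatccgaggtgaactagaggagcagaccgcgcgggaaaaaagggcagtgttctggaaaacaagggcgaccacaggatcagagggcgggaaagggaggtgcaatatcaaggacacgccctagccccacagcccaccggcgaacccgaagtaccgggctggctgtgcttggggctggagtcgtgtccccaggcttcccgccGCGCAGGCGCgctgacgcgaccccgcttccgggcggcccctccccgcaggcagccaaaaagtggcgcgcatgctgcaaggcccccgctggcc
Paics: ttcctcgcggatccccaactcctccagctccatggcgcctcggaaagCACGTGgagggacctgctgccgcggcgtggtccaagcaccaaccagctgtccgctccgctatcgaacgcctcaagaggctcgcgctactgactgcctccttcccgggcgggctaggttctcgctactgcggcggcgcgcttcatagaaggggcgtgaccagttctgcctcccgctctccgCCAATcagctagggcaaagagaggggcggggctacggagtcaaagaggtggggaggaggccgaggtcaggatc
Gart: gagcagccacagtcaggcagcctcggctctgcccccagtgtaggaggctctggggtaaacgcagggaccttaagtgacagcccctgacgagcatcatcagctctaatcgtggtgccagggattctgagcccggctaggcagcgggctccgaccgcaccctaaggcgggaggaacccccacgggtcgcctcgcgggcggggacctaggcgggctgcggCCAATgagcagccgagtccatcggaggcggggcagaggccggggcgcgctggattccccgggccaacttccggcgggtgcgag

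The windows of the neighbours do not overlap, and they hold different motifs. The stretch between these windows lies inside the overlap of the 2 genes, and neither window covers it. Motifs there were not searched for, so the contrast depends on where the windows were placed. The Ppat window holds an NRF1 motif and no E-box, and the Paics window an E-box and a CCAAT box. The Gart window holds a CCAAT box alone. Among all 32851 RefSeq promoter windows, 7.15% hold the E-box letters, 4.6% the NRF1 letters and 37.4% the CCAAT letters, so CCAAT matches are common. Of the 10 windows of the members, 3 hold the E-box, 1 the NRF1 and 4 the CCAAT letters. These shares were not tested against each other. TGATGNAA, an element bound by ATF4 with C/EBP partners, is in 3.97% of windows, and TGACGTCA, the cyclic AMP element, in 1.79%. Neither was found in the 10 windows of the members, which cover 9 of the 10 genes. Among the members without a probe set, Atic and Impdh2 each hold an E-box and a CCAAT box in their window. These are matches of letters, not measured sites.

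Gart too has a head-to-head neighbour, Son, a splicing cofactor whose start site lies 852 bases upstream. The brightest of its 6 probe sets read 10.25, 10.27 and 10.54 in control and 10.42, 10.72 and 10.48 in starved cells. The groups overlapped and the difference of 0.18 did not pass (95% interval −0.05 to 0.42, adjusted p = 0.186 by limma), and it was −0.19 under poly-A centring. Its other probe sets disagreed, with 2 higher, 1 lower and the rest not called. No direction was settled for Son beside the fall of Gart.

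Adsl encodes adenylosuccinate lyase, which acts both in ring assembly and in the last step towards adenylate. It read 9.54, 9.47 and 9.41 on control arrays and 9.40, 9.27 and 9.35 on starved arrays. The starved arrays were all lower, though the nearest arrays of the 2 groups were almost equal, and the difference of −0.14 did not pass (SE 0.07, 95% interval −0.30 to 0.02, adjusted p = 0.155 by limma). In the gene fit it passed with centring on the array median (−0.19), with a further quantile normalization (−0.20) and under hybridization (−0.32) or poly-A centring (−0.51). The pass with array median centring was narrow (adjusted p = 0.0458 by limma). It was lost in the fit over all probe sets (adjusted p = 0.0594 by limma).

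Adss encodes adenylosuccinate synthase, which takes IMP into the adenylate branch. It read 10.84, 10.83 and 10.89 in control and 11.14, 10.96 and 11.17 in starved cells. All starved arrays were higher, and the difference of 0.23 passed in the deposited scaling (SE 0.08, 95% interval 0.06 to 0.41, adjusted p = 0.032 by limma) but was 0.05 under hybridization and −0.14 under poly-A centring. The call was also lost when any array other than starved replicate 2 was left out. Those fits gave 0.23, 0.22 and 0.25 without control replicates 1, 2 and 3 and 0.21 and 0.19 without starved replicates 1 and 3, with adjusted p between 0.06 and 0.0945. Adssl1, the isozyme known from muscle, overlapped between the groups and did not pass (6.63 ± 0.05 and 6.64 ± 0.05, SD, n = 3, difference 0.01, 95% interval −0.15 to 0.16), with −0.37 under poly-A centring.

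Impdh1 encodes an IMP dehydrogenase, which takes IMP into the guanylate branch. It read 8.05, 8.05 and 8.01 in control and 7.87, 8.04 and 7.83 in starved cells. Starved replicate 2 lay within the control range, and the difference of −0.12 did not pass (SE 0.08, 95% interval −0.29 to 0.05, adjusted p = 0.226 by limma). It did pass under hybridization (−0.31) or poly-A centring (−0.50).

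**Figure D3:**
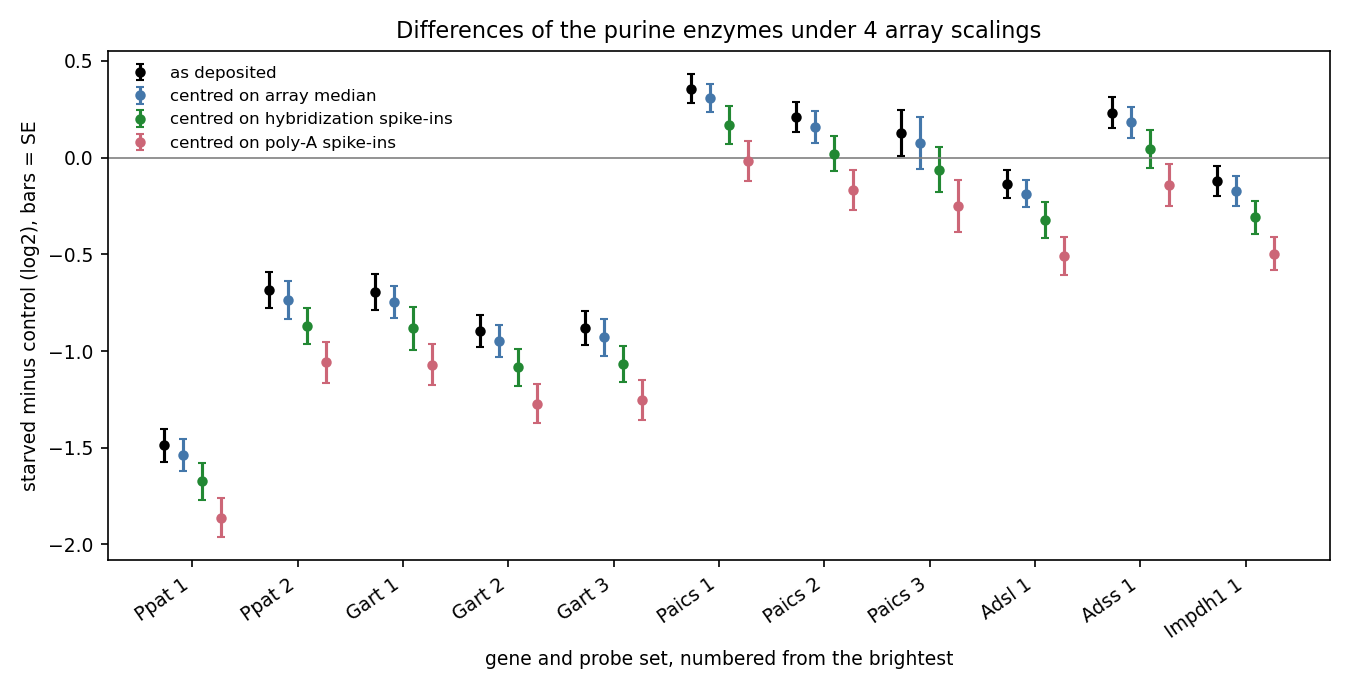
Difference between starved and control arrays (log2, bars are SE) for the 11 member probe sets as deposited (black) and with each array centred on its median (blue), on the hybridization spike-ins (green) or on the poly-A spike-ins (red). Ppat and Gart stay below 0 in all 4 scalings, while Paics and Adss pass from above 0 to below it.

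Over probe sets, 5 of the 11 were lower, 2 higher and 4 not called, where 20.5% of all probe sets were lower and 20.4% higher. Starved and control arrays were fully apart in 9 of the 11, and in 52.2% of all probe sets. Centring on the array median left 1 member higher (background 19.8%) and 3 lower (28.1%). Hybridization centring left 0 higher (13.5%) and 4 lower (49.2%). Poly-A centring also left 0 higher (8.21%) and 4 lower (72.1%), as it did without the Trp control (6.94% and 75.2%). The counts under spike-in centring were thus near their background. The order of the members held in every scaling by construction, since a centring moves all genes alike. In that order Ppat was followed by Gart, which it preceded only through its brighter probe set (without probe sets that can bind several transcripts, Ppat stood at −0.68 and Gart at −0.70). Next came Adsl and Impdh1, whose intervals overlap almost wholly, and last Adss and Paics, whose intervals overlap too.

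**Figure D4:**
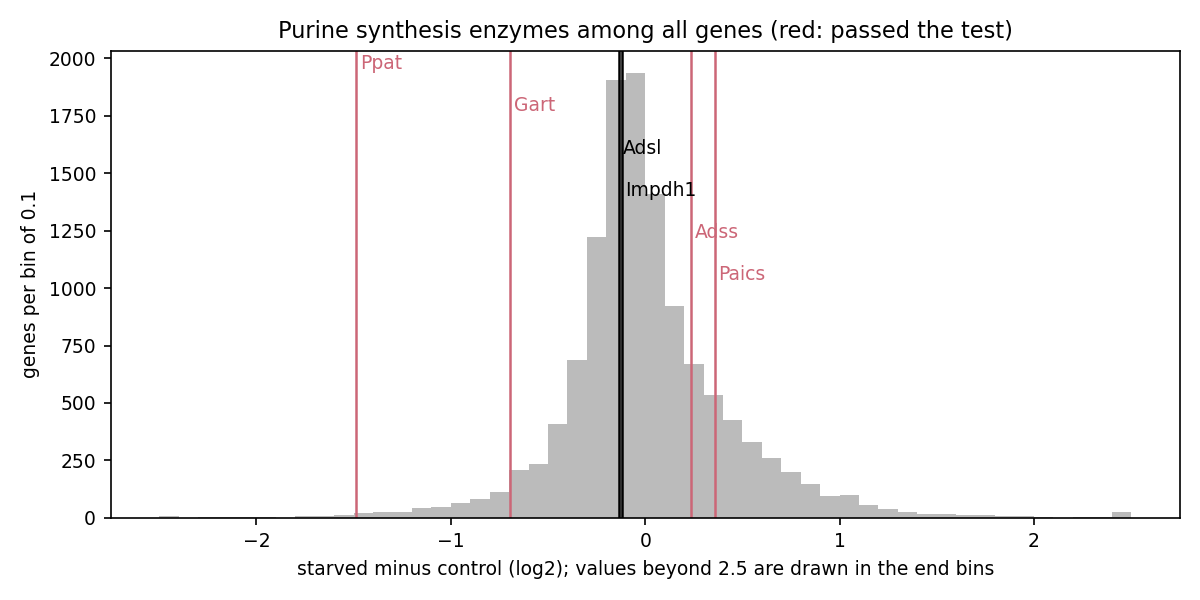
Histogram of the difference between starved and control arrays (log2, x axis) over 12393 genes in the deposited scaling, with vertical lines at the 6 members, in red where the test was passed. Ppat lies in the far lower tail with 59 genes below it, and Adsl and Impdh1 lie at the centre. The positions of Paics and Adss above 0 reverse under poly-A centring.

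Genes around the pathway were described from 8 lists written from textbook knowledge. Together they hold 85 measured genes, of which 41 were lower (22% of all genes were), 11 higher (22.1% of all genes) and 33 not called. Their median was −0.21, against −0.05 for all genes. Under poly-A centring 68 were lower and 7 higher, near the 72.1% and 8.21% of all genes. The counts of each list below are in the deposited scaling and stand against the same 22% lower and 22.1% higher.

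Genes that supply the carbon units and glycine of the ring had the lowest median. Of 12 measured one-carbon and glycine donors 8 fell and 0 rose, leaving 4 uncalled (median −0.58), beside 22% of all genes that were lower. Psph, the last enzyme of serine synthesis, read 9.51, 9.45 and 9.43 in control and 8.18, 7.69 and 8.01 in starved cells (−1.50, adjusted p = 4.82e-06 by limma). Mthfd2, which makes formyl carriers in mitochondria, read 10.65, 10.49 and 10.67 against 9.17, 9.07 and 9.12 (−1.48, adjusted p = 5e-07 by limma). The control and starved arrays were apart by more than 1 in both genes.

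Of 8 genes for glutamine and aspartate supply 5 fell and 1 rose, leaving 2 uncalled (median −0.35). The aspartate aminotransferase Got1 fell by 1.45 and the mitochondrial aspartate carrier Slc25a13 by 0.99, whereas glutamine synthetase, Glul, rose by 0.77. Of 8 genes of PRPP supply 4 fell and 0 rose, leaving 4 uncalled (median −0.17). Rpia, which makes ribose phosphate, fell from 8.83 ± 0.03 to 7.74 ± 0.13 (SD, n = 3, adjusted p = 4.64e-06 by limma), and the pentose phosphate enzyme Pgd by 0.26. The PRPP synthetases Prps1 (−0.14) and Prps2 (−0.12) did not pass.

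Salvage genes showed no rise. Of 7 measured, 4 fell and 0 rose, leaving 3 uncalled (median −0.33), beside 22% of all genes that were lower. Under poly-A centring all 7 were lower, as were 72.1% of all genes. Hprt, which recovers hypoxanthine and guanine, read 10.46, 10.40 and 10.49 in control and 9.88, 9.62 and 9.83 in starved cells. It fell by 0.67 (adjusted p = 0.000115 by limma) and Mtap, which frees adenine from methylthioadenosine, by 0.57.

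Of 17 genes of nucleotide interconversion and phosphorylation 8 fell and 1 rose, leaving 8 uncalled (median −0.11). The adenylate kinase Ak4 read 7.44, 7.72 and 7.46 against 5.67, 5.85 and 5.71, and fell by 1.80 (adjusted p = 5e-07 by limma), and the guanylate kinase Guk1 fell by 0.95. The ribonucleotide reductase subunit Rrm1 rose by 0.48 in the deposited scaling, with 1 of its 2 probe sets called, and lost its call under poly-A centring (0.11).

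Genes of purine breakdown and dephosphorylation went both ways in the deposited scaling, 6 of 13 down, 4 up and 3 uncalled (median −0.16), beside 22% of all genes down and 22.1% up. Under poly-A centring 9 were lower and 2 higher, beside 72.1% and 8.21% of all genes. The nucleotidases Entpd5 and Entpd6 fell by 0.74 and 0.70. Samhd1, a dNTP hydrolase that is also an interferon-induced gene, rose from 8.71 ± 0.07 to 9.91 ± 0.05 (SD, n = 3, adjusted p = 1.15e-06 by limma), and the ectonucleotidase Entpd2 rose by 0.99. Of 6 nucleoside and base transporters 2 rose and 1 fell, leaving 3 uncalled (median −0.04). The nucleoside transporters Slc29a3 and Slc29a1 rose by 0.83 (1 of 2 probe sets called) and 0.66, and the base transporter Slc43a3 fell by 0.56.

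Of 14 factors known to bear on purine gene control 5 fell and 3 rose, leaving 6 uncalled (median −0.01). Myc read 9.21, 9.10 and 9.23 in control and 8.39, 8.34 and 8.34 in starved cells (−0.83, adjusted p = 9.49e-06 by limma), with the groups well apart. Like those of Hprt, Entpd2 and Slc29a1, its only probe set is of a type that can bind several transcripts, so none of these genes had a value without such probe sets. Its partner Max fell by 0.89 and Atf4 by 0.91, and the MYC antagonist Mxi1 rose by 0.76. Mitf rose by 0.62, a call lost with poly-A centring that left out the Trp control (0.20). These are changes of transcripts, and no activity of a factor was measured.

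**Figure D5:**
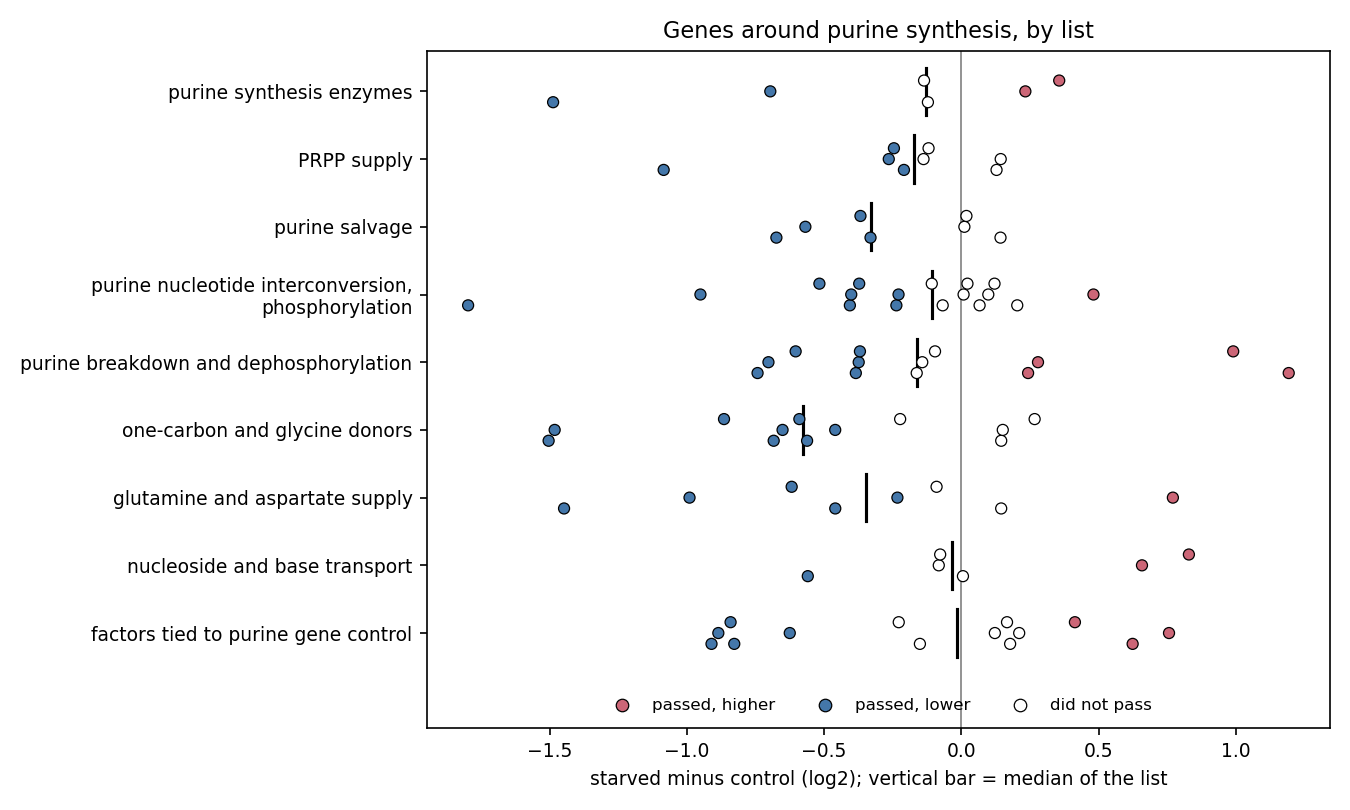
Difference between starved and control arrays (log2, x axis) for each measured gene of the purine synthesis enzymes and of 8 lists around them (rows), red where higher and blue where lower past the test, white where it was not passed, with a bar at each median. Median differences run from −0.58 for one-carbon and glycine donors to −0.01 for control factors, in the deposited scaling, which centring on spike-ins lowers for every row.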

How the data were processed

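The authors deposited log2 array signals, 1 value per probe set and array, made with affy and RMA per the submitters' processing notes, which give no version. RMA corrects background, normalizes arrays by quantiles and summarises probes, so it removes global changes and compresses differences of dim genes. Of 22690 probe sets, 64 controls, 691 with several genes and 1555 with none listed were left out. A gene took its brightest probe set over all 6 arrays. The identifiers of all 6 measured members were found in the RefSeq gene table (GRCm38.p6).

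All genes were fitted with limma 3.58.1 in R 4.3.3 (lmFit, eBayes, two-sided, no covariate), adjusted by Benjamini-Hochberg over 12393 genes at 0.05, and all probe sets in a second fit of the same form. Within-array differences were compared with exact permutation tests. The planned comparison of Impdh2 with Impdh1 was not run, because Impdh2 had no probe set under the rule. Motifs and sequences come from the RefSeq promoter table and were read in Python 3.11.15 (pandas 2.3.3). Figures used matplotlib 3.10.9. Members, lists and alternatives were chosen with earlier results of these data known. Genes named outside the members follow a rule: up to 2 called genes each way with the largest change per list, Myc, Atf4, Adssl1 and head-to-head neighbours. Prps1 and Prps2 were named after their values were seen. Alternatives were other summaries of probe sets, filters, scalings, variance models, thresholds and leaving out each array. The fit was tested on simulated data. The number of arrays limits the precision.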

Additional observations from a re-analysis of the deposited data

Results flagged for a closer look

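Both sets of spike-in controls, which were not among the genes tested and served only for the spike-in centrings, were brighter on starved arrays. The 27 poly-A probe sets averaged 6.93 to 6.94 on control and 7.23 to 7.40 on starved arrays, a difference of 0.375. The 18 hybridization probe sets averaged 10.12 to 10.14 and 10.26 to 10.37, a difference of 0.188. The groups did not overlap in either (exact two-sided permutation p = 0.1, the smallest possible). The smaller differences of Paics, Adss, Adsl and Impdh1 are of the size of these shifts.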

How the results depend on the processing

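Ppat kept its direction and its call in all 20 alternatives (−1.91 to −0.68). Gart did so in 19 of 20 (−1.12 to −0.64) and was lost only under a minimum difference of 1. For Paics 15 of 20 alternatives kept the call, 3 lost it and 2 reversed the sign, and for Adss these counts were 8, 10 and 2. Member genes called higher (2 as reported) numbered 1 under centring on the array median (19.8% of all genes) and at an adjusted p below 0.01 (17.3%). They numbered 0 under centring on the hybridization spike-ins (13.5%), the poly-A spike-ins (8.21%) and the poly-A spike-ins without Trp (6.94%). The centring without Trp was an alternative chosen after seeing the data. Member genes called higher also numbered 0 with a minimum log2 difference of 1 (2.64%). The same held with treat, limma's test against a minimum fold, set at 1.2 (10.6%). Member genes called lower (2) numbered 4 under each of the 3 spike-in centrings (49.2%, 72.1% and 75.2% of all genes). They numbered 1 with a minimum difference of 1 (1.74%). Member probe sets called higher (2) numbered 1 with a further quantile normalization, array median centring, array weights and the replicate block, and 0 under the 3 spike-in centrings. The share of all probe sets called higher is given only for the deposited scaling (20.4%). Counts of member probe sets in other settings, also with 1 array left out, thus have no background and are not read as a result. Leaving out 1 array gave 1 to 2 member genes (19% to 22.2% of all genes) and 1 to 2 member probe sets called higher, with Adss the call lost. Paics minus Ppat values were then 1.79 to 1.90. Averaging probe sets within a gene gave 1.316 for Paics minus Ppat.

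Over all genes, 1673 were higher and 6102 lower under hybridization centring, 1017 and 8939 under poly-A centring, 860 and 9321 without Trp, 327 and 216 with a minimum difference of 1, and 1314 and 939 with treat, while 1782 were lower at an adjusted p below 0.01. Higher calls made up 41.4% of all calls under array median centring, 21.5% under hybridization, 10.2% under poly-A and 8.45% without Trp. The lists around the pathway gave 7 higher and 68 lower under poly-A centring, 6 and 71 without Trp, 1 and 5 with a minimum difference of 1, and 26 lower with treat. Signs reversed for Paics (−0.018 under poly-A centring and −0.069 without Trp), for Adss (−0.14 and −0.19) and for Son (−0.0040 under hybridization, −0.19 under poly-A and −0.24 without Trp). Adssl1, near 0, read −0.035 after quantile normalization and −0.042, −0.18, −0.37 and −0.42 under the 4 centrings, and ranged from −0.021 to 0.034 when 1 array was left out. Centring moves all genes by 1 constant, which sets these changes, and for other settings the cause was not tested.

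No pairing of samples by replicate number was seen (correlations of same-numbered deviations of −0.0046, −0.022 and 0.0021). These values cannot settle whether the cultures were paired. A limma fit with a replicate block called 2669 genes higher and 2605 lower, with 2 members each way. The planned comparison of Impdh2 with Impdh1 was not run.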
